A study of Mus musculus with 40 samples.

Results

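Peg3 and Igf2 are imprinted genes that lie far apart on mouse chromosome 7, and DNA methylation was measured in a short stretch of each in liver DNA. The members are the CpG sites of the deposited table at positions 6682916 to 6683052 (Peg3, 11 CpGs) and 149846969 to 149847104 (Igf2, 11 CpGs) of chromosome 7 in the mm9 genome build, together 22 of the 300 CpGs in the table. They were chosen by position and gene only, so their methylation values played no part in the choice.

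At an imprinted gene, the copies inherited from the mother and from the father carry different marks, and mostly one of them is expressed. Peg3, which encodes a zinc finger protein, is expressed from the paternal copy, and the stretch around its first exon is methylated on the maternal copy. A tissue in which both copies are sampled equally therefore has an intermediate methylation level there. Igf2 encodes insulin-like growth factor 2, a growth factor that the liver makes in quantity before birth and much less of afterwards in mice. Igf2 is also expressed from the paternal copy, but the best known parental mark that controls it sits between Igf2 and its neighbour H19. The study asked whether the diet of the dam changed DNA methylation in the liver of the offspring, and both genes were among the loci it amplified.

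The study labelled 40 samples of liver from 9-week-old male C57BL/6 mice (substrain C57BL/6J) in 4 diet groups, of which 39 had values. Each group has 2 letters, the first for the diet of the dam and the second for the diet of the offspring after weaning, with L for low fat and H for high fat. LL had low-fat dams and a low-fat diet after weaning (10 animals), HL high-fat dams and a low-fat diet (9 animals), LH low-fat dams and a high-fat diet (10 animals), and HH a high-fat diet throughout (10 animals). Dams were on their diet before mating and until weaning, so a maternal difference covers the time before conception, pregnancy and lactation together. The labels do not say which animals were littermates. The p-values and intervals of the maternal comparisons therefore take each offspring as independent, although the maternal diet was given to the dam, and the intervals may be too narrow. At weaning the study divided the males of each cage between both diets, so littermates may be in both groups of a post-weaning comparison. The post-weaning tests and intervals also take each animal as independent and do not account for litter. Liver as a tissue could not be checked here because the table holds no expression. DNA was treated with bisulfite, which turns unmethylated cytosine into uracil, and the loci were amplified and sequenced. The methylation level of a CpG is the share of its reads that kept the cytosine, in percent, and the level of a locus is the mean over its 11 CpGs. Differences between levels are given in percentage points.

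The sequences that decide what was read are the primers, since only molecules that both primers of a pair fit were amplified. They are shown as given in the study's primer list, without the common tail, and capitals mark the bases that match a converted cytosine.
Peg3 forward: TTTTaaaTaTTatTtgaaTtTtgTaga
Peg3 reverse: AaAatAtccaccctAAActAAtAAc
Igf2 forward: aTTTTaagggTagtTTTTagtgaaT
Igf2 reverse: AcaAcacaAattttAAaaaaAtAtAtAtAc
Each primer covers 10 or 11 converted cytosines, and 0 CpGs lie in the primer sites, so the sequence of the primers did not depend on CpG methylation. Matched to the NCBIM37 assembly, the build that mm9 names, the Peg3 pair bounds 189 bases (chr7:6682889-6683077) and the Igf2 pair 200 bases (chr7:149846944-149847143). All 11 CpGs between the primers were measured at each locus.

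The CpGs are numbered along the plus strand, whereas both genes lie on the minus strand, so the highest numbers are nearest to the annotated starts. In the GENCODE annotation of the same assembly, Peg3_1 and Peg3_2 lie in an intron of Peg3 (ENSMUSG00000002265.8, 6656603 to 6683132) and Peg3_3 to Peg3_11 in its 5′ UTR exon, from 214 down to 78 bases downstream of the nearest start. All CpGs of Igf2 (ENSMUSG00000048583.9, 149836673 to 149852721) lie in an exon of 2 of the 4 transcripts over them, in the 5′ UTR of 1, from 141 down to 6 bases downstream of the nearest start. The windows below hold the CpGs the levels turn on, with the CpGs in capitals. They are reference sequence of the plus strand, for Peg3 the lone first CpG and the last 5, and for Igf2 the CpG with the lowest level, Igf2_5, with its neighbour Igf2_6, and the last 5 CpGs, which had the highest.
Peg3 first CpG, chr7:6682902-6682931: ctgaactctgcagaCGgtatctaagagggt
Peg3 last 5 CpGs, chr7:6683031-6683060: actgaacCGggCGccCGgCGgCGccaccag
Igf2_5 and Igf2_6, chr7:149847038-149847067: cccagtCGttttcctggacaCGggagcaac
Igf2 last 5 CpGs, chr7:149847076-149847105: CGtcctggcCGcCGCGcagtgtccagtgCG
Both stretches are alike in base composition, with a GC content of 65.1% at Peg3 and 61.5% at Igf2 and observed to expected CpG ratios of 0.563 and 0.582.

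Peg3 was sequenced more deeply than Igf2. At the first CpG, Peg3 had 5237 to 48159 reads (median 20296) in 39 animals, and Igf2 had 683 to 4074 (median 1450.5) in the 28 animals with a value. In the same library Peg3 had a median of 13.0 times the reads of Igf2 (range 3.93 to 21.9). Toward the middle of each amplicon the deposited counts were about 2 times those at the ends, at Peg3_2 to Peg3_7 and Igf2_4 to Igf2_10, so these counts were not read as more independent reads. The 95% Wilson interval at the first CpG extended by a median of 0.688 points to each side at Peg3 (0.446 to 1.35) and by 0.708 points at Igf2 (0.345 to 1.29). These intervals cover counting error only, since PCR reads without molecular identifiers are not independent molecules.

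Igf2 had no value in 11 of the 39 animals, whereas Peg3 had a value in all of them. By group, Igf2 was measured in 8 of 10 LL, 5 of 9 HL, 10 of 10 LH and 5 of 10 HH animals. The libraries without a value carry the library numbers 37 to 47 in the labels, all 11 libraries in that range, and all 28 outside it had every Igf2 CpG. In 1 of the 11, HL replicate 5, Igf2 is listed with 0 reads, and in the other 10 it is blank. The same libraries had 16953 to 95656 median reads per CpG at Peg3 (median 43528), against 10466 to 96073 (median 39045) in the libraries with Igf2. High-fat dams had 10 of 19 offspring with an Igf2 value and low-fat dams 18 of 20. In the pairwise comparisons the smallest p was for 5 of 10 HH against 10 of 10 LH animals (Fisher's exact test, 2-sided, p = 0.0325, adjusted over 4 comparisons 0.130). That test takes each animal as a separate event, whereas the missing libraries form an unbroken run of library numbers. It therefore cannot decide whether missing values go with diet. Why Igf2 is missing in this run of library numbers was not tested, and each Igf2 comparison below rests on the remaining animals.

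**Figure D1:**
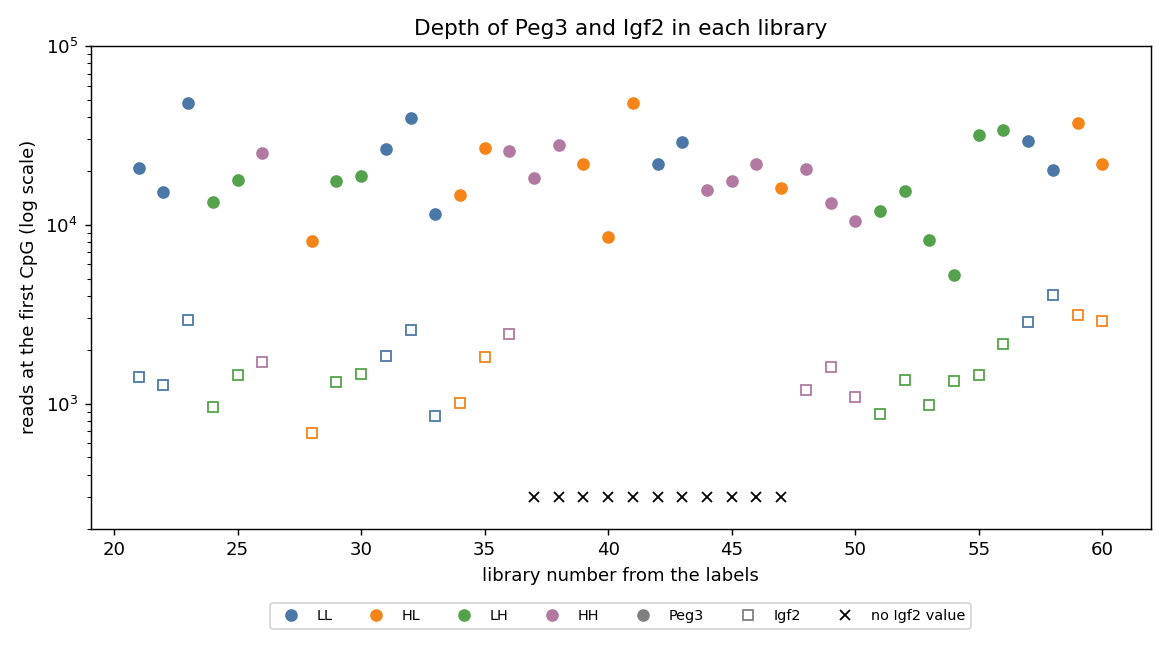
Reads at the first CpG (log scale) of Peg3 (filled circles) and Igf2 (open squares) against the library number in the labels, coloured by diet group, with crosses for libraries without an Igf2 value (the height of the crosses has no meaning). The 11 crosses fill the numbers 37 to 47, while Peg3 was read in each of those libraries.

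Peg3 had an intermediate level and Igf2 a low one. Over 39 animals the Peg3 level was 46.8% ± 3.08 (SD), with a lowest value of 39.2% in HL replicate 6, a median of 47.6% and a highest of 52.8% in LH replicate 10. Over 28 animals the Igf2 level was 3.50% ± 0.449 (SD), with a lowest of 2.61% in HH replicate 8, a median of 3.46% and a highest of 4.62% in HL replicate 4. Every Peg3 value was thus far above every Igf2 value.

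Among the 22 loci of the table with more than 1 CpG, Igf2 was the 13th and Peg3 the 18th from the lowest level. The neighbours of Igf2 were Nr1h3, a liver X receptor gene, with 1.64% ± 0.420 (SD, 38 animals), and Lepr, the leptin receptor gene, with 6.71% ± 1.07 (SD, 39 animals). Igf2 was above Nr1h3 in 27 of 27 animals, by 1.90 points, and below Lepr in 28 of 28 animals, by 3.09 points. The neighbours of Peg3 were Nr1i3, the gene of a xenobiotic receptor, with 32.0% ± 3.78 (SD, 39 animals), and Plagl1, the third imprinted locus of the table, with 51.2% ± 4.09 (SD, 39 animals). Peg3 was above Nr1i3 in 39 of 39 animals, by 14.8 points, and above Plagl1 in only 5 of 39, with a mean 4.35 points lower. All 41 pairs of Peg3 or Igf2 with another locus passed a sign-flip permutation test over animals (2-sided, 100000 resamples), with a largest adjusted p of 0.00299. For the 4 neighbours the p was 1e-05, the smallest that these resamples can give. The 12 loci below Igf2 had mean levels of 0.687 to 1.64%, a range in which cytosine left unconverted by the bisulfite cannot be told apart from methylation. The same limit holds within Igf2 for Igf2_4 (1.40%), Igf2_5 (1.07%) and Igf2_6 (1.60%), whose means lie in this range.

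**Figure D2:**
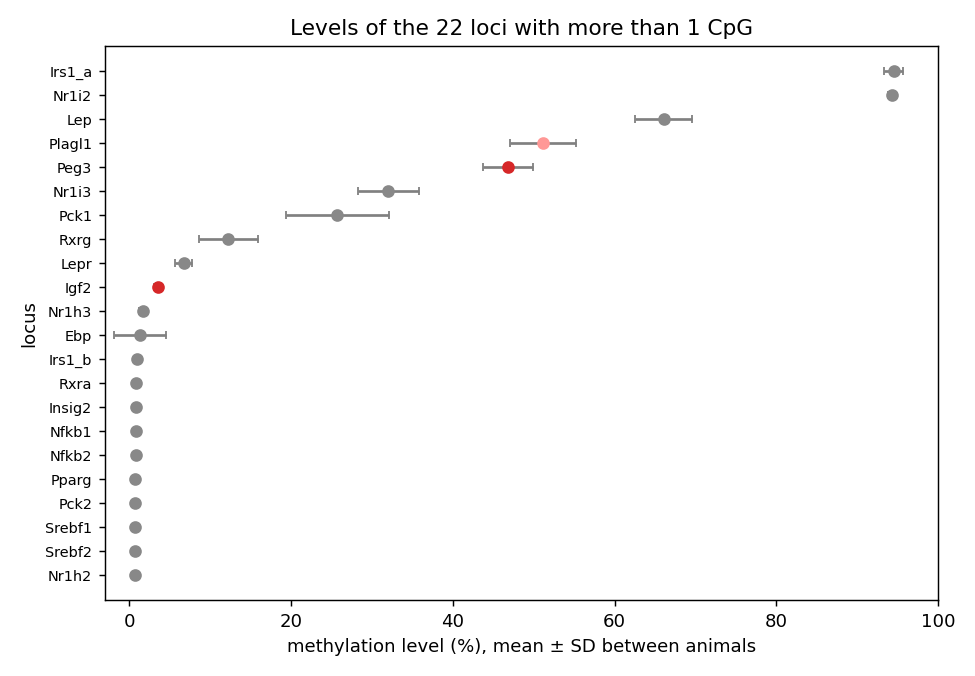
Methylation level (percent, mean with SD between animals as bars) of the 22 loci with more than 1 CpG, in order, with Peg3 and Igf2 in red and Plagl1 in light red. Peg3 (46.8%) sits just under Plagl1 (51.2%) and far from Igf2 (3.50%), which lies above the group of loci under 2%.

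The 11 CpGs of Peg3 had almost the same level. The lowest mean was at Peg3_2 (46.2% ± 2.98, SD, 39 animals) and the highest at Peg3_4 (47.4% ± 3.25), 1.17 points apart. After adjustment 7 of 11 CpGs (63.6%) deviated from the mean of the locus in the same animal (sign-flip permutation test over animals, 2-sided), a share near the 52.9% of the 297 CpGs tested over all loci. Peg3_2 was below the mean in 31 of 39 animals (by 0.62 points on average, adjusted p = 3.41e-05), and Peg3_11 above it in 34 of 39 (by 0.51 points, adjusted p = 3.41e-05). The intronic Peg3_1 and Peg3_2 had 46.3% ± 2.99 together and the 9 CpGs of the 5′ UTR exon 46.9% ± 3.11. Their difference of 0.634 ± 0.557 points (SD) was positive in 35 of 39 animals. All of these differences are smaller than the spread between animals.

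The 11 CpGs of Igf2 differed from each other by more than their spread between animals. The lowest mean was at Igf2_5 (chromosome 7, 149847044; 1.07% ± 0.558, SD, 28 animals), 66 bases downstream of the nearest start. The highest was at Igf2_11 (149847104; 6.63% ± 1.71), 6 bases downstream of it. Igf2_9 was close to Igf2_11 with 6.59% ± 1.32. Igf2_7 to Igf2_11, the 5 CpGs within 34 bases of the start, had a level of 5.48% ± 0.951 together, and Igf2_1 to Igf2_6 a level of 1.85% ± 0.304. This split was drawn after the values were seen. The first set was higher in 28 of 28 animals, by 3.63 ± 1.02 points (SD, range 1.07 to 5.91), which is a ratio of 2.96 between the means. Unconverted cytosine may be part of the lower level, so the ratio describes the reads and not methylation alone. After adjustment 9 of 11 CpGs (81.8%) deviated from the mean of the locus, against 52.9% of the CpGs over all loci. Igf2_1, Igf2_3, Igf2_4 and Igf2_5 were below it and Igf2_8, Igf2_9 and Igf2_11 above it in all 28 animals (each p = 1e-05 by sign-flip permutation, the smallest it can give). Igf2_2 (3.15% ± 0.993) and Igf2_7 (3.95% ± 1.502) did not pass, with adjusted p of 0.129 and 0.122 in the same permutation test. Igf2_2 was higher than both its neighbours Igf2_1 (1.98% ± 0.704) and Igf2_3 (1.90% ± 0.656) in the means.

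**Figure D3:**
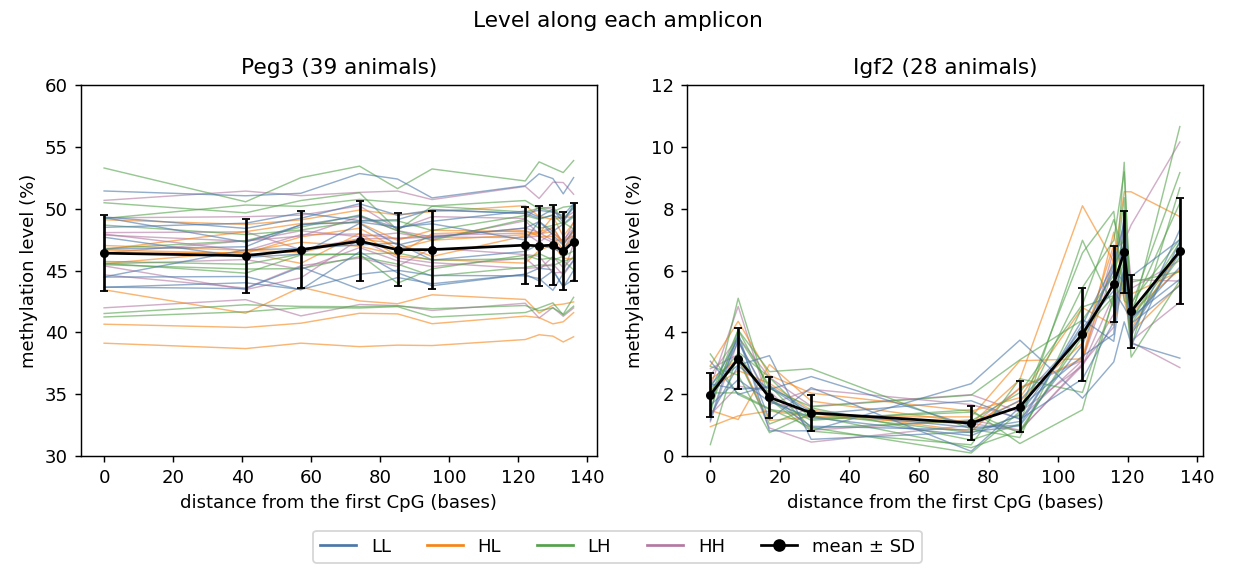
Methylation level (percent) of each CpG against its distance in bases from the first CpG of the amplicon, 1 thin line per animal coloured by diet group, with the mean ± SD over animals in black. The Peg3 lines run flat and side by side between about 39 and 54%, whereas the Igf2 lines cross and rise toward the last 5 CpGs, which are nearest to the annotated start.

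The animals differed in another way at each locus. At Peg3 an animal that was high at 1 CpG was high at all. Over the 55 pairs of CpGs the correlation across 39 animals ranged from 0.945 to 0.988 (Pearson r, median 0.966), and within an animal the 11 CpGs spanned 1.12 to 4.08 points (median 2.00). At Igf2 the correlation across 28 animals ranged from -0.369 (Igf2_5 and Igf2_7) to 0.589 (Igf2_8 and Igf2_11), with a median of 0.030 and 25 of 55 pairs below 0. The points of these correlations share libraries and, in part, the same reads, so they are given as descriptions. Plagl1, the third imprinted locus of the table, had a median of 0.908 over its 136 pairs in 38 animals. Other loci, among them Lep, Nr1i3 and Pck1 of intermediate level, were not examined in this way.

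Counting error was a small part of the spread at Peg3 and a larger part at Igf2. At Peg3_1 the SD between animals was 3.08 points and the SD that counting alone gives at these depths was 0.383 points, a ratio of variances of 64.7. At Igf2_1 the SD was 0.704 points against 0.371 points from counting, a ratio of 3.59. Over the 11 CpGs, with the reads at the first CpG taken as the depth, this ratio was 59.6 to 71.8 at Peg3 and 3.37 to 8.38 at Igf2. The values of single Igf2 CpGs are thus less precise relative to their spread than those of Peg3. Counting here takes each read as an independent molecule, which PCR reads without molecular identifiers are not. The ratios may therefore be too high at both loci.

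The first comparisons ask whether the diet of the dam left a difference in offspring fed the same diet after weaning. In offspring fed the low-fat diet, the Peg3 level was lower in HL than in LL, but not beyond the spread between animals. The HL animals had a lowest value of 39.2%, a median of 47.2% and a highest of 49.4%, and the LL animals 44.2%, 48.0% and 51.9%, so the groups overlapped. The means were 45.4% ± 3.57 (SD, n = 9) and 47.6% ± 2.57 (n = 10), a difference of -2.16 points (95% interval -5.05 to 0.73 from a linear model of the 4 groups). An exact permutation test gave p = 0.147, adjusted over 19 loci 0.490. Without HL replicate 6, the animal with the lowest Peg3 level of all, the difference was -1.39 points (exact permutation p = 0.299). All 11 CpGs were lower in HL, by 1.89 to 2.61 points, against a median difference of -0.04 points over the 253 CpGs tested. None of the 11 passed after adjustment, where 0 of 253 CpGs (0%) did, and before adjustment 0 of 11 had a p under 0.05, where 14.6% of all CpGs did. The smallest p was at Peg3_5, with 45.1% ± 3.40 in HL and 47.6% ± 2.47 in LL (exact permutation test, p = 0.0807, adjusted 0.491).

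Igf2 was higher in HL than in LL, again within the spread. The 5 HL animals had 3.75, 3.44, 4.62, 3.05 and 3.48%, and the 8 LL animals a lowest of 2.63%, a median of 3.34% and a highest of 3.59%. In HL 1 value stood above the rest, and the other 4 lay within or just above the LL range. The means were 3.67% ± 0.587 (SD, n = 5) and 3.25% ± 0.294 (n = 8), a difference of 0.41 points (95% interval -0.10 to 0.93, exact permutation test p = 0.131, adjusted over 22 loci 0.487). Without HL replicate 4 it was 0.18 points (exact permutation p = 0.339), and without HL replicate 9 it was 0.57 points (exact permutation p = 0.0323, adjusted 0.250). With the reads pooled over the locus it was 0.50 points (exact permutation p = 0.0497, adjusted 0.274). At single CpGs 0 of 11 passed after adjustment, as did 0 of 297 CpGs over all loci (0%), and before adjustment 0 of 11 had a p under 0.05, against 12.8% of all. The smallest p was at Igf2_8, with 6.19% ± 1.16 in HL and 4.85% ± 1.25 in LL (exact permutation test, p = 0.0746, adjusted 0.536). With at least 1000 reads at every Igf2 CpG, which left 4 HL and 7 LL animals, the unadjusted exact permutation p at this CpG was 0.00606 (adjusted 0.270).

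In offspring fed the high-fat diet, the Peg3 levels of HH and LH were close. The HH animals had a lowest value of 41.9%, a median of 47.6% and a highest of 51.3%, and the LH animals 41.8%, 47.2% and 52.8%. The ranges of both groups nearly coincided. The means were 47.05% ± 2.58 (SD, n = 10) and 47.1% ± 3.57 (n = 10), a difference of -0.05 points (95% interval -2.86 to 2.76, 2-sided parametric test of the means, p = 0.973, adjusted 0.973). Of the 11 CpGs 5 were lower and 6 higher in HH, 0 passed after adjustment (0% of 253 CpGs), and before adjustment 0 had a p under 0.05 (2.77% of all). The smallest p was at Peg3_3 (46.7% ± 2.79 against 47.2% ± 3.51, p = 0.747, adjusted 0.964). A maternal difference of 3 points at Peg3 in either direction lies outside this interval, but the interval takes littermates as independent animals. Whether such a difference is excluded with the dam as the unit could not be tested.

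At Igf2 the 5 HH animals had 3.29, 3.85, 2.61, 3.29 and 4.09%, and the 10 LH animals a lowest of 2.99%, a median of 3.64% and a highest of 4.27%. The HH values lay on both sides of the LH median. The means were 3.43% ± 0.575 (SD, n = 5) and 3.66% ± 0.371 (n = 10), a difference of -0.23 points (95% interval -0.72 to 0.26, exact permutation test p = 0.356, adjusted 0.713). Without HH replicate 8 it was -0.03 points (exact permutation p = 0.885), and without HH replicate 10 -0.40 points. No CpG passed after adjustment (0 of 11, 0% of 296), and 0 of 11 had an unadjusted p under 0.05 (2.36% of all). The smallest p was at Igf2_7 (3.01% ± 0.085 in HH and 4.46% ± 1.74 in LH, exact permutation test, p = 0.0846, adjusted 0.909).

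The next comparisons ask whether the diet of the offspring after weaning left a difference. Among offspring of low-fat dams, Peg3 did not differ beyond the spread, with the LH and LL values given above. The difference LH minus LL was -0.48 points (95% interval -3.29 to 2.33, n = 10 in each group, same test, p = 0.735, adjusted 0.927). All 11 CpGs were lower in LH, by 0.08 to 0.94 points, 0 passed after adjustment (0% of 253), and before adjustment 0 had a p under 0.05 (7.91% of all). The smallest p was at Peg3_5 (46.8% ± 3.33 in LH and 47.6% ± 2.47 in LL, p = 0.514, adjusted 0.921). Within the 2 runs of neighbouring animal numbers that held both groups (10 animals) the difference was 0.30 points (exact permutation p = 0.9), so its sign was not the same.

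Igf2 was 0.41 points higher in LH than in LL (95% interval -0.02 to 0.83), the smallest p of any locus-level comparison of either gene. In the LH group 8 of 10 animals were above the LL median of 3.34%, and both groups overlapped between 2.99 and 3.59%. The exact permutation test gave p = 0.0224, which was not past the threshold after adjustment over 22 loci (0.247; over the alternatives 0.0778 to 0.88). Before adjustment 9.09% of loci had a p under 0.05. On the log2 scale of the read ratio the unadjusted p was 0.456 (limma), and with at least 1000 reads at every Igf2 CpG, which left 7 animals in each group, the difference was 0.28 points (exact permutation p = 0.141). Of the 11 CpGs 6 were higher and 5 lower in LH. None passed after adjustment (0% of 296), and 1 of 11 had an unadjusted p under 0.05, against 7.77% of all CpGs. This was Igf2_11, with a lowest value of 5.68%, a median of 6.96% and a highest of 10.7% in LH and of 3.17%, 6.34% and 7.33% in LL (difference 1.49 points, exact permutation test, p = 0.0479, adjusted 0.625). Leaving out LL replicate 6, the lowest LL animal at Igf2, gave an unadjusted exact permutation p of 0.108 at this CpG.

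Among offspring of high-fat dams, the Peg3 level was higher in HH than in HL, but not beyond the spread (difference 1.63 points, 95% interval -1.26 to 4.52, exact permutation test p = 0.268, adjusted 0.708). Without HL replicate 6 it was 0.86 points (exact permutation p = 0.516), and without HL replicate 9 1.08 points. Taken within runs of neighbouring animal numbers (12 animals in 3 runs with both groups), HH minus HL was 1.02 points by the exact permutation test (p = 0.6), with HH higher in 2 runs and lower in 1. All 11 CpGs were higher in HH, by 1.34 to 1.93 points, 0 passed after adjustment (0% of 253), and before adjustment 0 had a p under 0.05 (12.6% of all). The smallest p was at Peg3_5 (47.1% ± 2.43 in HH and 45.1% ± 3.40 in HL, exact permutation test p = 0.174, adjusted 0.630). HL is the group with the lowest mean in both comparisons it enters, and these share its animals.

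Igf2 had a lower mean in HH than in HL by 0.24 points (95% interval -0.81 to 0.33, exact permutation test p = 0.548, adjusted 0.659), with 5 animals in each group. Without HL replicate 4 it was under 0.01 points lower, and with any 1 animal left out it ranged from -0.41 to -0.0016 points. At Igf2_7 both groups did not overlap. The HH animals had 2.996, 3.09, 2.94, 2.92 and 3.10%, and the HL animals 4.80, 3.66, 8.09, 3.15 and 3.15%. The HH values were within 0.2 points of each other, and the lowest HL values lay just above them. Both distances are smaller than the counting error of 1 value. The 95% Wilson interval at the first CpG extended by at least 0.345 points to each side in every animal with an Igf2 value. The order of values this close is therefore not resolved. The difference was -1.56 points (exact permutation test, p = 0.00794, the smallest that 5 against 5 animals allow, adjusted 0.284). It was -0.68 points without HL replicate 4. Of the 296 CpGs tested 0.338% (1 CpG, Igf2_7 itself) had groups that did not overlap. Most of these CpGs had values in more than 5 animals of each group. Separation is then less likely, so this share is not a like comparison. A second CpG, Igf2_6, had an unadjusted p under 0.05 (1.30% ± 0.559 in HH and 2.29% ± 0.522 in HL, exact permutation test p = 0.0238, adjusted 0.343), which makes 2 of 11, against 12.8% of all CpGs, and 0 of 11 passed after adjustment (0% of 296).

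**Figure D4:**
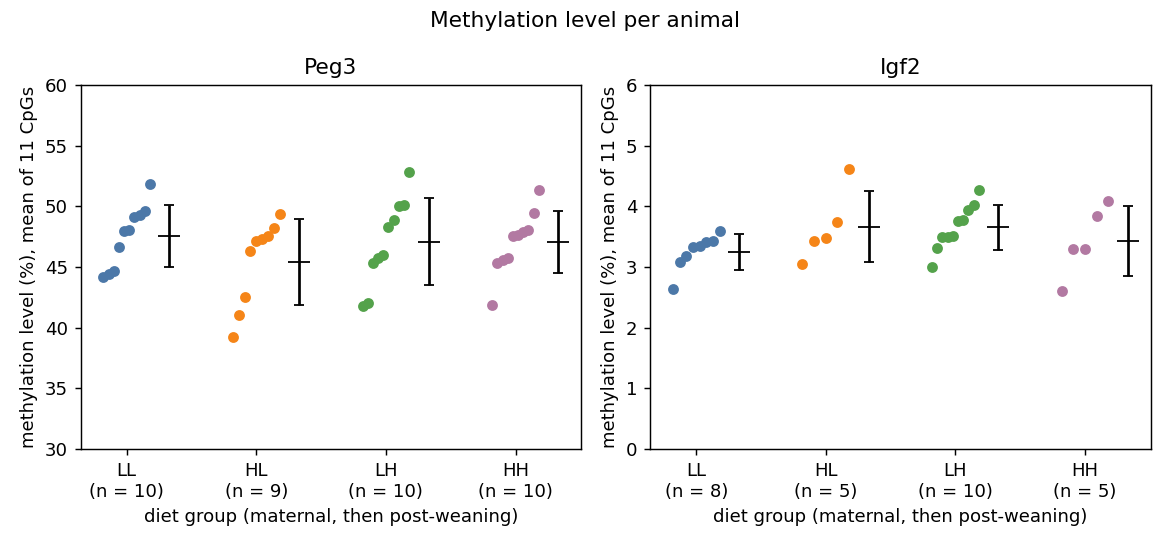
Methylation level (percent, mean of 11 CpGs) of each animal at Peg3 and Igf2 by diet group, with the mean ± SD in black. The 4 groups overlap at both loci, with means from 45.4 to 47.6% at Peg3 and from 3.25 to 3.67% at Igf2. The vertical axis of Peg3 does not start at 0.

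**Figure D5:**
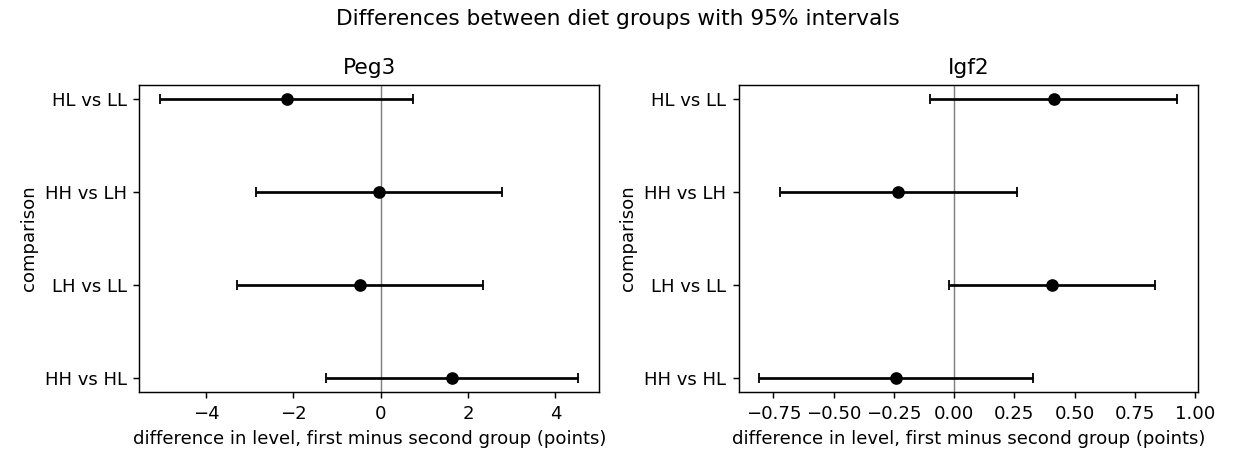
Difference in level (percentage points, first minus second group) in the 4 pairwise comparisons, with 95% intervals from a linear model of the 4 groups. All 8 intervals include 0. They extend up to 2.89 points to each side at Peg3 and up to 0.568 points at Igf2.

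With all animals in a linear model, neither diet gave a difference that passed the threshold. The maternal high-fat diet went with a Peg3 difference of -1.07 points (46.3% in 19 and 47.3% in 20 animals, F test p = 0.287, adjusted over 22 loci 0.724) and an Igf2 difference of 0.08 points (10 and 18 animals, F test across all loci, adjusted p = 0.865). The post-weaning high-fat diet went with 0.55 points at Peg3 (adjusted p = 0.843) and 0.17 points at Igf2 (adjusted p = 0.792). The maternal difference on the high-fat post-weaning diet minus that on the low-fat diet was 2.11 points at Peg3 and -0.65 points at Igf2, and neither interaction passed (adjusted p = 0.587 and 0.483). Without HL replicate 6 the Peg3 values were -0.68 points for the maternal diet, 0.15 for the post-weaning diet and 1.34 for the interaction. Without HL replicate 4 the Igf2 values were -0.05, 0.27 and -0.41 points in the same order. Of the 22 member CpGs 0 passed for any of the 3 terms, against 0%, 1.01% and 0% of 296 CpGs for the maternal term, the post-weaning term and the interaction. Before adjustment 2 of 11 Igf2 CpGs and 0 of 11 Peg3 CpGs had an interaction p under 0.05, against 7.09% of all.

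No difference in the spread between animals passed the threshold among the diet groups. The SD of the Peg3 level was 2.57 points in LL, 3.57 in HL, 3.57 in LH and 2.58 in HH (Brown-Forsythe statistic, permutation p = 0.622, adjusted 0.961). The SD of the Igf2 level was 0.294 in LL, 0.587 in HL, 0.371 in LH and 0.575 points in HH (permutation p = 0.595, adjusted 0.961).

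Animals with a high level at Peg3 were not detectably those with a high level at Igf2. After the mean of the diet group was taken away, the correlation over the 28 animals with both values was r = 0.192 (permutation p = 0.328, adjusted 0.807; Spearman's rho 0.121, permutation p = 0.538), and 0.142 without the 2 animals farthest from the median of Igf2. Of 43 such relations of Peg3 and Igf2 with other loci and with their own depth, 0 passed after adjustment and 5 had an unadjusted p under 0.05. The locus most like Peg3 was Rxra (38 animals), with r = 0.353 (permutation p = 0.0289, adjusted 0.378) and rho = 0.371 (permutation p = 0.0223), and r = 0.361 without the 2 animals of most extreme Rxra level. Nr1h3 (38 animals) followed with r = 0.330 (permutation p = 0.0439, adjusted 0.378) and rho = 0.368 (permutation p = 0.0234), and r = 0.372 without 2 animals. Plagl1 (39 animals) had r = 0.294 (permutation p = 0.0692, adjusted 0.496) and rho = 0.229 (permutation p = 0.162), and r = 0.260 without 2 animals. Within the groups the r of Peg3 with Rxra was 0.391 in LL, 0.362 in HL, 0.410 in LH and 0.291 in HH. With Nr1h3 it was 0.354, 0.390, -0.007 and 0.664 in the same order, and with Plagl1 0.045, 0.148, 0.559 and 0.416. The largest r of Igf2 was with Nr1i2 (27 animals), -0.461 (permutation p = 0.0154, adjusted 0.361) with rho = -0.376 (permutation p = 0.0548), and -0.315 without 2 animals. With Srebf2 (28 animals) Igf2 had r = 0.451 (permutation p = 0.0168, adjusted 0.361) and rho = 0.431 (permutation p = 0.0230), and r = 0.428 without 2 animals. With Rxra (27 animals) it had r = -0.399 (permutation p = 0.0409, adjusted 0.378) and rho = -0.480 (permutation p = 0.0117), and r = -0.452 without 2 animals. The r of Igf2 with Srebf2 was 0.370 in LL and 0.350 in LH, the groups with at least 6 animals, and that with Nr1i2 was -0.215 and 0.061, so the last did not keep its sign within groups. The r of Igf2 with Rxra was -0.097 in LL and -0.515 in LH. Rxra, Nr1h3 and Srebf2 are among the loci below Igf2 in level. Their values cannot be told apart from unconverted cytosine, so these relations need not be of methylation. The Peg3 level had r = 0.252 with the log10 of its own depth (permutation p = 0.121, adjusted 0.537) and rho = 0.239 (permutation p = 0.142), and r = 0.414 without the 2 animals of most extreme depth.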

How the data were processed

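Bisulfite-treated liver DNA of each animal was amplified at chosen loci, barcoded per animal, pooled and sequenced by the authors, who called methylation with Bismark on the mm9 build (Bismark's version is not given in the sources used here). The authors deposited, for each animal and CpG, counts of methylated and of total reads, and in a second table the methylated fraction. The deposited fractions equal the ratio of the counts to within 5e-16. Sums of reads over CpGs were 1.53e+06 to 1.55e+07 per library. The lowest read count above 0 was 100. HL replicate 1 has no column and was not analysed here. No libraries were duplicates: the closest pair differed by 0.807 points on average.

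The level is 100 times methylated over all reads, at least 10 reads required. For Peg3, CpGs with values in at least 36 animals were tested (253 CpGs, 19 loci), following the study's filter, which Igf2 does not pass. For Igf2, CpGs with values in at least 4 animals of each group compared were tested. Groups of 10 against 10 values were compared by Student's t-test and all others by an exact permutation test (2-sided, 2 times the smaller tail, scipy 1.17.1). Model terms were F tests of a linear model over all CpGs or loci. The Benjamini-Hochberg adjustment ran over all CpGs or loci tested, at 0.05. Correlations, order, profile and spread used 100000 resamples. Alternatives were rank tests, a quasi-binomial model, limma 3.58.1 (R 4.3.3) on log2((methylated + 1)/(unmethylated + 1)), 1000 reads at every CpG of Peg3 or Igf2, pooled reads, adjustment over all comparisons, other filters, runs of animal numbers (at most 3 apart) as a block, and leaving out each animal. On simulated data with 10 points added to 40 of 253 CpGs in HL, the HL against LL test called 39 of 40 and 1 of 213 others. The points added exceed every diet difference given here, and the 253 CpGs leave out Igf2. The simulation thus does not say how well differences of the reported size would be found. Named CpGs were, per comparison, the smallest p, those past the threshold, and the highest and lowest levels. Named loci were neighbours in level, the imprinted ones and the 3 largest correlations. Names outside this rule (the Igf2 split, Igf2_6, CpGs of unusual values) were chosen after their values were seen. The members, lists and tests were chosen with earlier results of these data known. Sequences came from the study's primer list and the NCBIM37 assembly with GENCODE annotation.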

Additional observations from a re-analysis of the deposited data

Results flagged for a closer look

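In groups of 4 to 10 animals, 104 sets of values of Peg3 and Igf2 (the level of the locus, each CpG and the median depth in each diet group) were searched for an animal far from the others. There were 6 such values, all at Igf2 and none at Peg3. Chance alone gives 5.2 at 1 in 20 over the sets of both loci together. Fewer are expected in the Igf2 sets alone, so the 6 values are not shown to be within chance. At Igf2_6 LL replicate 6 had 3.75% (next highest 1.81%), and at Igf2_11 the same animal had 3.17% (next lowest 5.52%). At Igf2_10 LL replicate 4 had 5.81% (next highest 4.50%), and HL replicate 4 had 8.54% (next highest 5.24%). At Igf2_4 LH replicate 10 had 2.83% (next highest 1.60%). The same animal had a median of 4310 reads per CpG at Igf2, where the next highest LH animal had 2934.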

How the results depend on the processing

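No diet comparison of Peg3 or Igf2 passed the adjusted threshold under any alternative run, by any of the tools or with any 1 animal left out, and 0 CpGs of either gene did in the pairwise comparisons. Along Peg3, 8 CpGs instead of 7 deviated from the mean of the locus with at least 1000 reads. Of all results, 210 values came from other settings and 603 from leaving out 1 animal. The sign changed in 3 of the 210, each near 0. HH against LH at Igf2 became 0.0057 and the post-weaning term at Igf2 -0.0035 on the log2 scale (limma), and LH against LL at Peg3 became 0.30 points within runs of animal numbers. With 1 animal left out, the difference ranged from -0.64 to 0.58 points for HH against LH at Peg3 and from -1.04 to 0.13 at Peg3_3, from -1.11 to 0.11 for LH against LL at Peg3, and from -0.050 to 0.20 for the maternal term at Igf2. HL replicate 4 moved the maternal, HL against LL and HH against HL values of Igf2 most, and HL replicate 6 those of Peg3. Pooling reads over a locus gave levels of 46.8% at Peg3 and 3.52% at Igf2. In runs of animal numbers HH and HL shared only 2 animals with an Igf2 value, which allows no p under 1. No paired analysis was possible because replicate numbers here follow the order of the samples and pair no animals. With at least 1000 reads the post-weaning term at Igf2 was 0.09 points, HH against LH at Igf2_7 -0.73 and LH against LL at Igf2_11 0.90. At single Igf2 CpGs the variance between animals was 3.37 to 8.38 times that of counting, which limits their precision.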

Other observations

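The deposited counts have a regular structure along both amplicons. At Peg3_2 to Peg3_6 and at Igf2_4 to Igf2_10 every total and every methylated count was even, in all 39 and all 28 animals. The total there was 1.99 to 2.01 times that of the first CpG in every library, and at the CpGs near the ends 0.989 to 1.01 times. Peg3_7 had about 2 times the reads as well, but an even total in only 18 of 39 animals. Across the change of depth the level was 46.7 to 47.1% at Peg3_6 to Peg3_9. At Igf2 it was 1.90% at Igf2_3 and 1.40% at Igf2_4, and 4.68% at Igf2_10 and 6.63% at Igf2_11, in each case higher at the CpG with the single depth. The cause of the pattern was not tested.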
